A study of Sus scrofa with 4 samples.

Results

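The transforming growth factor beta (TGF-beta), bone morphogenetic protein (BMP) and fibroblast growth factor (FGF) pathways were examined in porcine blastocysts cultured with or without ethanol. The members were the array probes whose annotated symbol names a ligand, receptor, transducer, regulator or early target of these pathways. They were 64 of the 11060 named genes on the array, measured by 82 of its 43794 probes, and 46 of the 64 were detected above background. No probe carried the names NODAL, TGIF1, SKI or ID3 in the annotation used here.

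Zygotes of the ethanol group spent 7 days in porcine zygote medium PZM3 with 0.2% ethanol, in sealed glass vials, and control embryos had no added compound. The sources used here give no breed, sex or genotype of the embryos. All embryos were collected as expanded blastocysts, so the comparison covers only embryos that reached this stage. On each of 4 two-colour arrays, amplified RNA of 1 ethanol pool was hybridised against 1 control pool, both of 10 embryos, with ethanol RNA in Cy5 on arrays 1 and 3 and in Cy3 on arrays 2 and 4. Whether the 4 pools of a group came from separate cultures was not stated. The p-values thus rest on the spread between these pools, which may be technical, moderated over all kept probes. The number of arrays limits the precision of every value, and in whole blastocysts fewer cells of a type and less RNA per cell cannot be told apart.

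TGF-beta family ligands are secreted dimers that bind pairs of type I and type II receptor kinases. Receptors for TGF-beta, activin and nodal phosphorylate SMAD2 and SMAD3, whereas BMP receptors phosphorylate SMAD1, SMAD5 and SMAD9, and both sets join SMAD4 to act on target genes. FGFs bind receptor tyrosine kinases that signal through GRB2 and the RAS and MAP kinase cascade. In the mouse blastocyst FGF4 from the inner cell mass directs cells to the hypoblast and sustains the trophectoderm, while activin, nodal and BMP signals act in lineage choice after implantation.

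The labelled stage was checked against its markers. Of 10 trophectoderm markers 9 were above background, and CDX2, GATA3, KRT8 and KRT18 were so in both channels of all 4 arrays, as was POU5F1 of the inner cell mass. HAND1, SOX2 and KLF4 were not kept, and NANOG, GATA4 and SOX17 had no probe of that name. Markers of cumulus and granulosa cells, which surround the oocyte, were also measured, and 6 of 8 were kept, PTX3 and AMH among them in both channels of all arrays. The log2 of the summed intensities of this last list was 9.53 to 9.68 in ethanol pools and 9.47 to 9.63 in control pools. That of the trophectoderm list was 16.3 to 17.5 in ethanol and 16.6 to 17.4 in control pools. KRT8 and KRT18, the brightest markers, weigh most in this sum. The median log2 ratio of ethanol over control in the trophectoderm list was -0.17. Of its 9 kept markers 3 (GATA2, TEAD4 and PPAG3) were lower at an unadjusted p under 0.05, and of the inner cell mass 1 of 3 (ESRRB), against 9.03% of named genes in either direction, and none passed the adjusted threshold by limma. The 3 kept markers of the inner cell mass were all below 0 (median -0.26), with sums of 10.8 to 11.1 and 11.0 to 11.25. The 4 of the hypoblast had a median of 0.16, with sums of 11.9 to 12.2 and 11.9 to 12.3. The part of these cell types in the results below was not tested.

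Detection differed between the roles. Background was the 95th percentile of an array's negative-control spots in the same channel, and a gene was kept when a probe did so on at least 3 arrays in ethanol RNA or on at least 3 in control RNA. By this rule 54 of 82 member probes (65.9%) were kept, against 59.1% of all probes. Kept genes were 9 of 18 FGF ligands, 7 of 8 BMP ligands, 10 of 12 receptors of the TGF-beta family, 6 of 7 SMADs and 1 of 3 TGF-beta ligands. Of the 46 kept genes, 17 were above background in both channels of every array (37.0%), against 70.7% of all 7344 named kept genes, so most members fell to background in at least 1 channel.

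**Figure D1:**
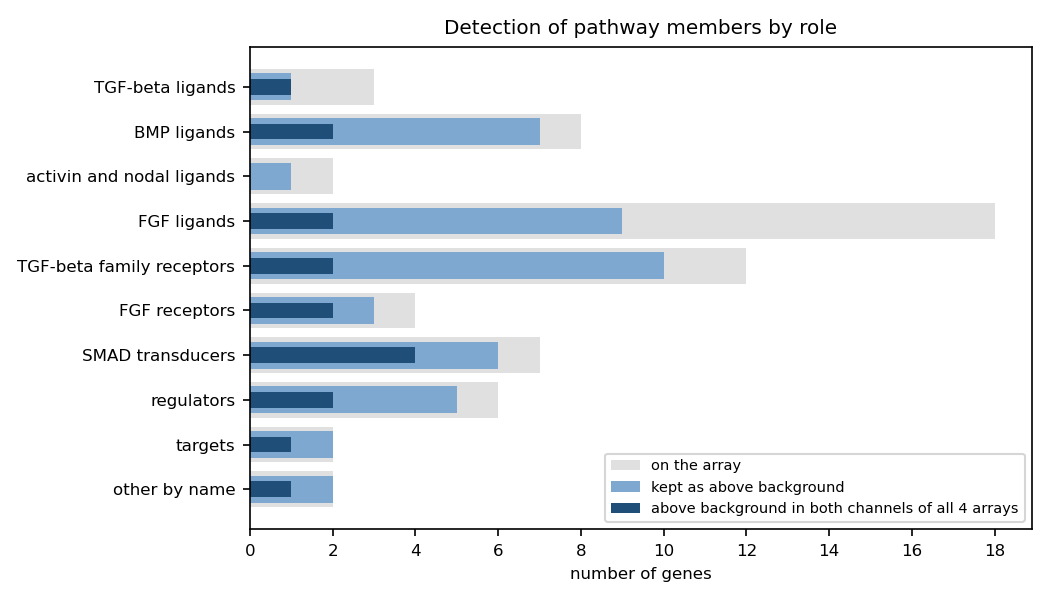
The bars give the number of genes in each role that are on the array (grey), kept as above background (light blue) and above background in both channels of all 4 arrays (dark blue). Of 18 FGF ligands 9 were kept and 2 were above background throughout, while 4 of the 7 SMADs were above background throughout.

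Several kept ligands rested on the Cy3 channel. For 4 of 9 FGF ligands and 3 of 7 BMP ligands the kept probe was above background in Cy3 on all 4 arrays and in Cy5 on at most 1. This held for 10 of the 46 kept members (21.7%), against 7.88% of named kept genes. Probes of 8 genes, TGFB1, TGFBR2, SKIL, FGF14, FGF17, FGF19, FGF20 and FGF21, were below background in all 8 channels. TGFB2, BMP7, INHBE, FGF1, FGF3, FGF4, FGF7, BMPR1A, FGFR3 and SMAD6 were above background in some channels but on too few arrays to be kept. TGFBR2 is the type II receptor for TGF-beta and BMPR1A a type I receptor for BMP. Their partners TGFBR1 and BMPR2 were both kept.

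Ethanol and control pools were then compared for every member. Values are log2 ratios, ethanol over control, fitted with a dye term over the 4 array pairs. Each has a moderated standard error (SE) from limma, which draws a probe's own variance towards that of all kept probes. No member passed the threshold of 0.05 after adjustment over all kept probes by limma, as was true of all 25899 probes (0%), and the smallest adjusted p of a member was 0.511. Without adjustment 3 of 54 member probes lay under a p of 0.05, all 3 higher in ethanol, against 7.27% of all kept probes in either direction 3.54% in the higher direction and 3.73% in the lower. These were BMP1, TGFB3 and LTBP1, 3 of 46 genes, where 9.03% of named genes lay under this p. Both shares of the members were near or below the background.

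The 46 genes had a median log2 ratio of 0.02, with 27 above 0 and 19 below, and lay between -0.13 and 0.35. All 7344 named genes had a median of -0.0010, with 3645 above 0 and 3699 below. The median size of the ratio, without its sign, was 0.07 for members and 0.07 for all named genes, while their median SE was 0.08. A typical member thus differed by less than its moderated SE. The counts by sign carry no weight of their own, because the filter bears on them. Of the 46 genes 13 were kept through control RNA alone, 10 of them below 0, and 3 (SMAD3, ID1 and FGFR1OP) through ethanol RNA alone, all above 0. This tilt was shared by the whole array. Members above background on more control than ethanol arrays numbered 17, and 7 the reverse, against 1092 and 502 of 7344 named kept genes. Detection in Cy5 was highest on array 4 (57.3% of probes), where Cy5 held control RNA. Over all 64 genes, with no filter on dim probes, the median was 0.01, with 38 above 0 and 26 below.

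**Figure D2:**
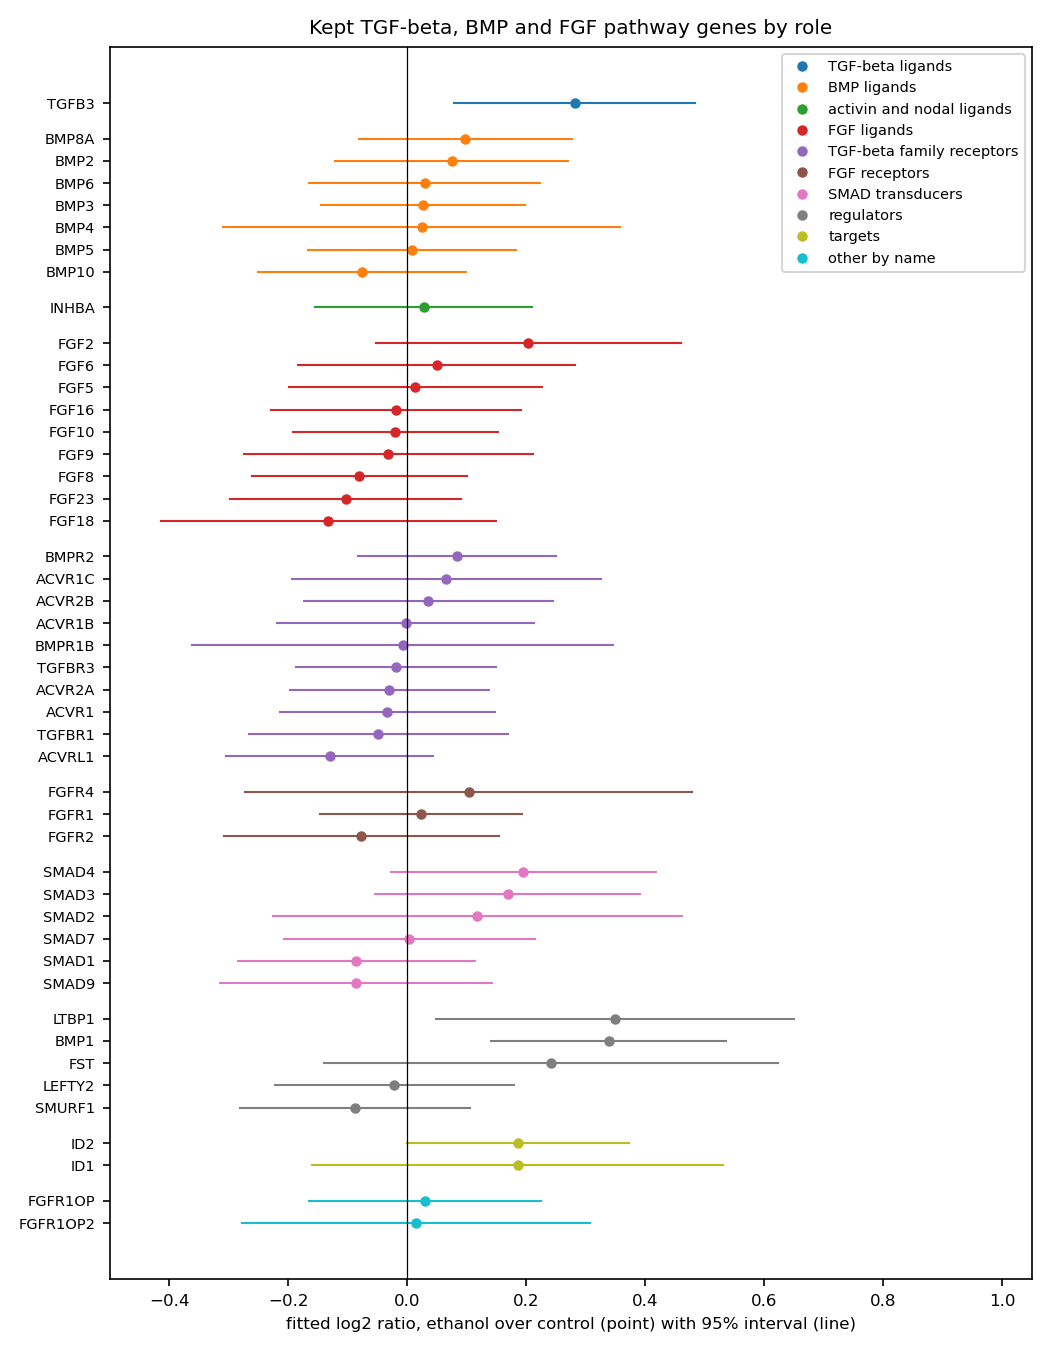
Each point is the fitted log2 ratio of ethanol over control for 1 of the 46 kept genes on its brightest probe, and the line is its 95% interval from 4 arrays, coloured by role. The intervals of TGFB3, BMP1 and LTBP1 lie above 0, and those of the other 43 genes cross it.

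Of the TGF-beta ligands, TGFB3 alone was kept. In Cy5 its normalised log2 intensity was 7.64 and 7.78 in the ethanol pools and 7.36 and 7.44 in the control pools. In Cy3 it was 7.60 and 7.88 in ethanol and 7.29 and 7.68 in control pools. The ethanol pool was the higher of the pair on all 4 arrays, while the groups overlapped in Cy3. Within a dye, ethanol and control pools come from different arrays, so such a comparison also takes in the level of the array. The log2 ratio was 0.28 (SE 0.08), a 1.22-fold difference with a 95% interval of 0.08 to 0.48 on the log2 scale, and an adjusted p of 0.564 by limma. It stayed between 0.22 and 0.34 with any 1 array left out.

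BMP1 and LTBP1 act outside the cell on the supply of these ligands. BMP1 is no BMP despite its name but a metalloprotease that cleaves procollagens, the BMP antagonist chordin and latent TGF-beta binding protein. Its intensity in Cy3 was 7.82 and 8.04 in ethanol pools and 7.20 and 7.32 in control pools, which did not overlap. In Cy5 the ethanol pools had 7.31 and 7.69 and the control pools 7.32 and 7.68, so their ranges coincided. The array means of BMP1 were 7.25, 7.57, 7.51 and 7.86 on arrays 1 to 4. The ethanol pool was again the higher on all 4 arrays, and the ratio was 0.34 (SE 0.08, 1.26-fold, 95% interval 0.14 to 0.54), with an adjusted p of 0.511 by limma.

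LTBP1 encodes latent TGF-beta binding protein 1, which anchors the inactive TGF-beta complex in the matrix. Its ethanol pools had 7.29 and 7.07 in Cy5 and 7.04 and 6.85 in Cy3, and its control pools 6.63 and 6.87 in Cy5 and 6.53 and 6.83 in Cy3. Ethanol pools lay above control pools within each dye, though in Cy3 the lower ethanol and higher control pool were only 6.85 and 6.83. Within arrays the gap was widest on array 1, while on array 4 the ratio was -0.03. The ratio was 0.35 (SE 0.12, 1.27-fold, 95% interval 0.05 to 0.65) with an adjusted p of 0.635 by limma. The second LTBP1 probe had 0.07 (SE 0.07), and without array 1 the ratio was 0.22. With a background offset of 0 it was 0.61, and the brighter probe was above background in control RNA on only 3 of 4 arrays.

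Groups that did not overlap within either dye, with ethanol higher, were found for 3 of 46 genes, LTBP1, FGF2 and BMPR2, and none lay apart in the lower direction. Among named genes 3.61% were apart in either direction. Of all kept probes 3.29% were apart, 1.35% with ethanol higher and 1.94% with ethanol lower. This overlap measure compares pools of different arrays and does not use their pairing. A ratio of 1 sign on all 4 arrays was seen for 4 of 46 genes, TGFB3, BMP1 and BMPR2 above 0 and BMP10 below, against 10.3% of named genes.

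**Figure D3:**
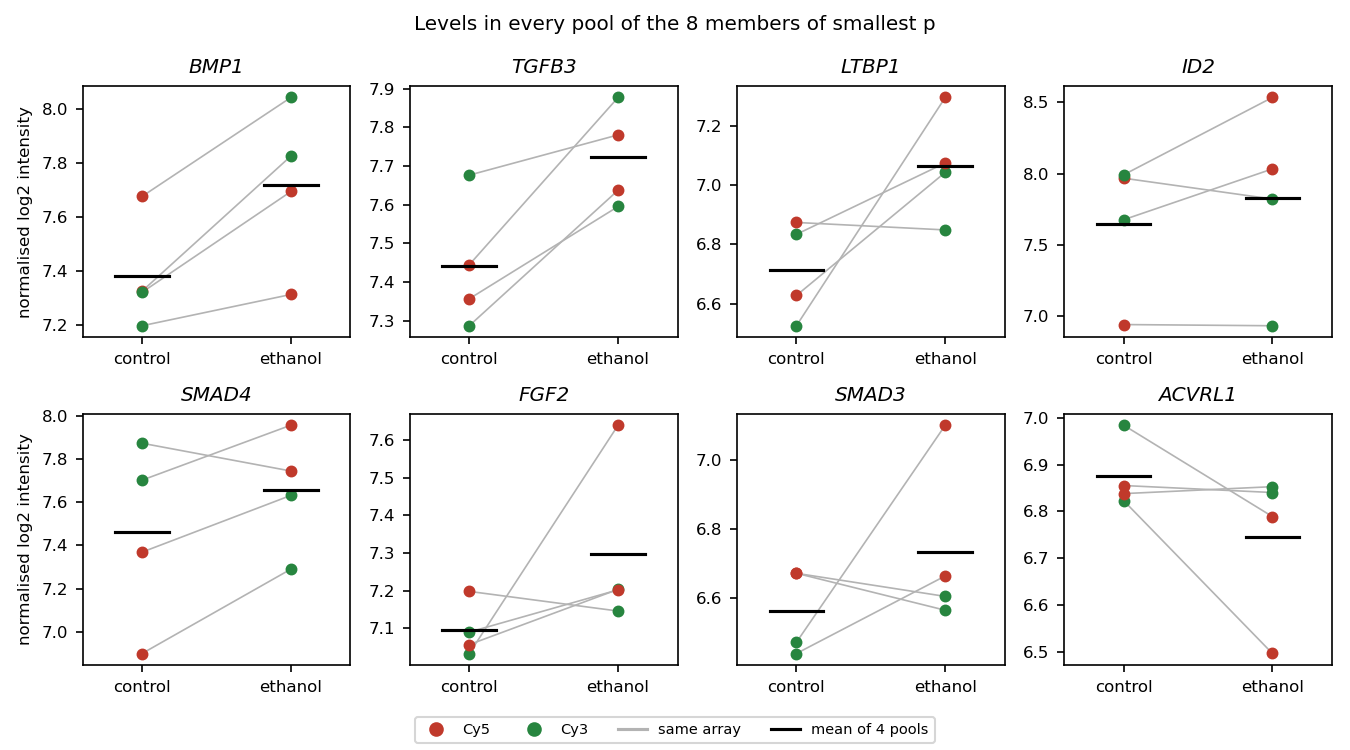
Each panel shows the normalised log2 intensity of 1 gene in the 4 control and 4 ethanol pools, coloured by dye, with grey lines joining pools of the same array and black bars for the mean of 4 pools; each vertical axis has its own range. All 4 lines slope upwards for BMP1 and TGFB3, while 1 array sets the ethanol mean apart for FGF2 and SMAD3.

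The remaining regulators went both ways. FST, follistatin, which binds and neutralises activin, had 9.01, 8.55, 8.88 and 8.70 in the ethanol pools of arrays 1 to 4 and 7.94, 8.75, 8.73 and 8.76 in the control pools. The control pool of array 1 was the low one, and the other 7 pools lay within 8.55 to 9.01. Its ratio was 0.24 (SE 0.15), and 0.0090 without array 1. LEFTY2, an inhibitor of nodal, had -0.02 (SE 0.08) and was kept through control RNA alone, so its sign is not read here. SMURF1, a ubiquitin ligase that removes BMP SMADs and receptors, had -0.09 (SE 0.08).

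BMP ligands lay close to 0, with none of 7 under an unadjusted p of 0.05, and BMP3, BMP5 and BMP10 were kept through control RNA alone. BMP4, which patterns early mesoderm and germ cells in the mouse, was above background in every channel and had a ratio of 0.02 (SE 0.14, 95% interval -0.31 to 0.36). BMP2, a close relative of BMP4, had 0.07 (SE 0.08). BMP8A had 0.10 (SE 0.07), BMP3 0.03, BMP5 0.0077 and BMP6 0.03. BMP10, a ligand known from the heart, had -0.08 (SE 0.07). The upper ends of the 95% intervals were 0.27 for BMP2 and 0.36 for BMP4. INHBA, the activin A subunit, had 0.03 (SE 0.07).

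Of the 9 kept FGF ligands, 6 (FGF5, FGF8, FGF9, FGF10, FGF16 and FGF23) were kept through control RNA alone, so their signs are not read here. FGF2, a basic FGF that binds several receptors, had 7.64 and 7.20 in the Cy5 ethanol pools and 7.06 and 7.20 in the Cy5 control pools. In Cy3 it had 7.20 and 7.15 in ethanol and 7.03 and 7.09 in control pools. The ethanol pool of array 1 stood high, while in Cy5 the other ethanol pool and the higher control pool were equal to 2 decimals. The ratio was 0.20 (SE 0.10, adjusted p = 0.764 by limma), and 0.08 without array 1. FGF18 had -0.13 (SE 0.11), with a value of 0.01 without array 2. The hormone-like FGF23 had -0.10 (SE 0.08) and FGF8 -0.08 (SE 0.07). The other 5 ligands, FGF5, FGF6, FGF9, FGF10 and FGF16, lay between -0.03 and 0.05.

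Of the 10 kept receptors of the TGF-beta family none lay under an unadjusted p of 0.05, and ACVR1, ACVR2A and ACVRL1 were kept through control RNA alone. BMPR2, the type II BMP receptor, had 6.81 and 6.86 in the Cy5 ethanol pools and 6.74 and 6.76 in the Cy5 control pools. In Cy3 it had 6.80 and 6.84 in ethanol and 6.72 and 6.75 in control pools. Its 8 pools were close to each other and every ethanol pool exceeded every control pool. BMPR2 was above background in Cy5 on only 2 of 4 arrays and in each treatment on 3, so these levels lie near background. With the dye term taken out, its ratios on arrays 1 to 4 were 0.07, 0.08, 0.09 and 0.09. The fitted ratio was small at 0.08 (1.06-fold, adjusted p = 0.917 by limma), and its moderated SE of 0.07 exceeds the spread of these 4 ratios. The fitted ratio stayed at 0.08 to 0.09 with any 1 array left out.

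ACVRL1 (ALK1), a type I receptor best known from endothelial cells, had the lowest value of the receptors. It was kept through control RNA alone, which favours a ratio below 0. Its ethanol pools had 6.79 and 6.50 in Cy5 and 6.84 and 6.85 in Cy3, and its control pools 6.86 and 6.84 in Cy5 and 6.98 and 6.82 in Cy3. The ethanol pool of array 3 was the low one. The ratio was -0.13 (SE 0.07, adjusted p = 0.790 by limma), and it was above background in ethanol RNA on 2 arrays. With a background offset of 0 it was -0.28 and with mean pixel intensities -0.03. TGFBR1, the type I TGF-beta receptor, had -0.05 (SE 0.09) and -0.04 on its second kept probe, and the activin receptors ACVR1B, ACVR2A and ACVR2B had -0.0022, -0.03 and 0.04. BMPR1B, ACVR1 and the co-receptor TGFBR3 had -0.0078, -0.03 and -0.02, and ACVR1C 0.07.

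For the FGF receptors several probes could be set side by side. FGFR2, which the trophectoderm expresses in the mouse, had 4 kept probes with ratios of -0.08, -0.06, 0.0055 and 0.08, none of them under an unadjusted p of 0.05. FGFR1 had 0.02 (SE 0.07) and -0.05 (SE 0.07) on its kept pair. FGFR4 had 0.10 (SE 0.15) on the brighter probe and -0.06 (SE 0.08) on the other. Of the 6 genes with more than 1 kept probe, 3 had probes on both sides of 0, and these were the FGF receptors.

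None of the 6 kept SMADs lay under an unadjusted p of 0.05. SMAD4 had 7.96 and 7.74 in the Cy5 ethanol pools and 7.37 and 6.90 in the Cy5 control pools. In Cy3 it had 7.63 and 7.29 in ethanol and 7.70 and 7.87 in control pools, so the groups lay apart in opposite ways in the 2 dyes. Within a dye the groups are on different arrays, and the array means of SMAD4 were 7.83, 7.50, 7.81 and 7.09 on arrays 1 to 4. On the arrays the ethanol pool was higher by 0.25, 0.26 and 0.39 on arrays 1, 2 and 4, and on array 3 the ratio was -0.13. The fitted ratio was 0.20 (SE 0.09, adjusted p = 0.726 by limma), 0.10 without array 1 and 0.31 with a background offset of 0.

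SMAD3 was above background in ethanol RNA on 3 arrays and in control RNA on 0, so it was kept through the ethanol group alone, which favours a ratio above 0, and its control level is only a bound. Its ethanol pools had 6.66 and 7.10 in Cy5 and 6.57 and 6.61 in Cy3, and its control pools 6.67 and 6.67 in Cy5 and 6.44 and 6.47 in Cy3. The ethanol pool of array 3 stood apart and the rest lay close together. The ethanol pools had a mean of 6.73 and the control pools a measured mean of 6.57. With the control pools set at the lowest signal above background (6.59 on average), the mean was 1.10-fold higher in ethanol. This is a difference of means and sets no minimum for the fold. The 95% interval of the fitted ratio was -0.05 to 0.39 and thus spans 0, with an adjusted p of 0.782 by limma. The 1.10-fold figure rests on array 3, without which the fitted ratio of 0.17 (SE 0.09) was 0.07.

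SMAD2, the partner of SMAD3, had 0.12 (SE 0.14) on its brighter probe and 0.03 (SE 0.08) on the other, and -0.08 without array 1 on the former. SMAD1 had -0.09 (SE 0.08) and SMAD9 -0.09 (SE 0.09), and the inhibitory SMAD7, itself induced by TGF-beta, had 0.0037 (SE 0.08). With any 1 array left out SMAD9 ranged from -0.19 to 0.02.

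The ID genes encode inhibitors of basic helix-loop-helix factors and are early targets of BMP signalling. ID2, which marks the trophectoderm in the mouse, had 8.03 and 8.54 in the Cy5 ethanol pools and 7.97 and 6.94 in the Cy5 control pools. In Cy3 it had 7.82 and 6.93 in ethanol and 7.68 and 7.99 in control pools. The groups overlapped when dyes were pooled, and both pools of array 4 were low. The mean difference was 0.83 in Cy5 and -0.46 in Cy3, each of them a difference between arrays as well as treatments. Within arrays the ratio was 0.36 and 0.54 on arrays 1 and 3, but -0.15 and -0.0084 on arrays 2 and 4. The fitted ratio was 0.19 (SE 0.08, 95% interval -0.00078 to 0.37, adjusted p = 0.688 by limma), between 0.14 and 0.23 with any 1 array left out. ID1 had the same ratio, 0.19, with a wider error (SE 0.14), and -0.01 without array 2. It was above background in ethanol RNA on 3 arrays and in control RNA on 2.

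**Figure D4:**
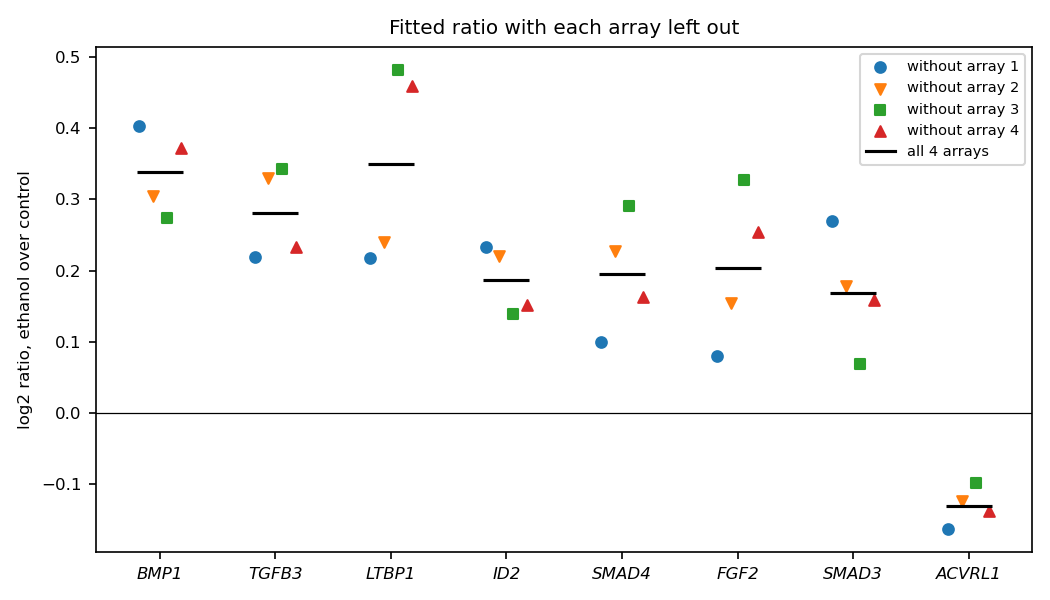
Coloured points give the fitted log2 ratio of ethanol over control for the 8 members of smallest p with each array left out in turn, and black bars the value from all 4 arrays. All points keep the sign of the bar, with BMP1 between 0.27 and 0.40 and FGF2 between 0.08 and 0.33. The 8 members were picked by p from these same arrays, which favours a kept sign.

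For most members the array means ranged over more than the size of the fitted ratio. The widest ranges, shared by both pools of an array, were those of FGFR4 and ID2. These genes were picked after their values were seen. FGFR4, a receptor for FGF19 in the human liver, had 7.70, 9.38, 8.66 and 8.87 in the ethanol pools of arrays 1 to 4 and 7.66, 9.18, 8.0 and 9.36 in the control pools. Arrays 2 and 4 were high and arrays 1 and 3 low in both treatments, and these pairs are also those of opposite dye orientation. The array means ranged 3.04-fold, with a standard deviation (SD) of 0.74 on the log2 scale (n = 4), against a median SD of 0.12 over all kept probes and 0.09 over the 46 members. The second FGFR4 probe ran in the same order over a smaller range (1.42-fold), at 7.09, 7.60, 7.23 and 7.53.

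ID2 ranged 2.51-fold between arrays (SD 0.56), with means of 7.86, 7.90, 8.26 and 6.94. FGFR4 and ID2 were the members with an SD over 0.5, which 2.57% of kept probes exceeded. SMAD4, with an SD of 0.34, was low on array 4 as well. SMAD2 had an SD of 0.21, and array 4 was the highest for its brighter probe and the lowest for the other. BMPR2, which lay near background, and FGF18 were the most even of the 46 genes, with an SD of 0.02 each. Whether a shared spot, hybridisation or origin of the paired pools moved with these levels was not tested.

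**Figure D5:**
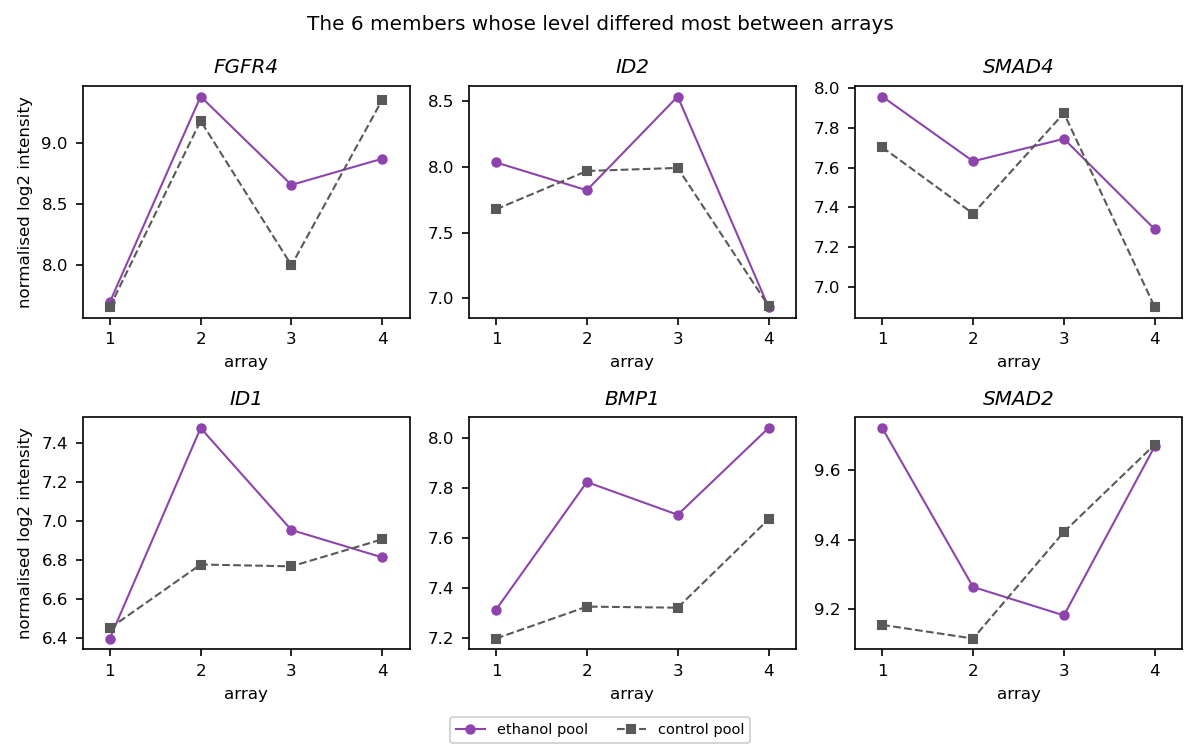
Normalised log2 intensity in the ethanol pool (purple) and the control pool (grey) of arrays 1 to 4 for the 6 members whose level varied most between arrays; each vertical axis has its own range. Both pools of FGFR4 are high on arrays 2 and 4, and both pools of ID2 are low on array 4.

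A list of 85 other genes of the same pathways was compared in the same fit. It was drawn up with earlier results on HTRA1 and GRB2 known, so these 2 are no independent evidence. Of the 44 kept, none passed the adjusted threshold by limma, and 7 lay under an unadjusted p of 0.05, with 3 higher and 4 lower, against 9.03% of named genes. HTRA1, a secreted protease that cleaves TGF-beta family proteins and matrix, had 0.61 (SE 0.07). It was kept through ethanol RNA alone, being above background in control RNA on 2 arrays. The adaptor GRB2, which links FGF receptors to RAS, had 0.58 (SE 0.08). GDF11, a ligand that signals through activin receptors, had 0.37 (SE 0.10).

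The lower values were those of 4 genes downstream of the receptors. TAB1, an activator of the TGF-beta activated kinase, had -0.41 (SE 0.09), with its second probe at -0.05 (SE 0.08). PMEPA1, a TGF-beta target that sequesters SMAD2 and SMAD3, had -0.34 (SE 0.08). E2F4, a cell cycle factor that works with SMAD3, had -0.24 (SE 0.07), and RNF111 (Arkadia), a ubiquitin ligase for SMAD inhibitors, had -0.26 (SE 0.10), with their second probes at 0.06 and 0.02. In the FGF branch, the feedback inhibitor SPRY2 had -0.03 (SE 0.08), the target ETV4 0.07 (SE 0.07) and MAP2K1, a kinase of the cascade, -0.16 (SE 0.10), none under an unadjusted p of 0.05. These last 3 genes were chosen after their values were seen. The median was 0.03 over 28 genes of the TGF-beta and BMP branches and -0.02 over 16 of the FGF branch.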

How the data were processed

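The deposited scanner files hold spot and local background intensity for Cy3 and Cy5, not normalized, per the file headers. A deposited table of the authors' processed values, on the log2 scale, has columns that correlated over probes with the Cy5 over Cy3 log2 ratios computed here at 0.968 to 0.990. Its column medians were -0.0138, -9.35e-05, 0.00378 and 0.00108, and how they were normalized is not stated in the labels or headers. Another table's 4 value columns, which carry no sample's name, were left out.

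Median pixel intensities were corrected with normexp (offset 50) and loess-normalized within arrays in R 4.3.3 with limma 3.58.1, with weight 0 for 1426 control and other spots. Saturated spots numbered 0 to 2 per array. Above background were 70.4% to 73.5% of probes in Cy3 and 45.3% to 57.3% in Cy5. The model had the signed orientation and a dye term, which left 2 residual degrees of freedom. Moderation by limma added 3.74 prior degrees of freedom, so SEs and p-values lean on the variance of all kept probes. The p-values were adjusted by Benjamini-Hochberg over 25899 kept probes. Levels per pool are log2 intensities after Aquantile scaling of the array means, and the mean of the differences within each dye equals the fitted ratio. Genes with several kept probes are given by the brightest.

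Symbols are those of the array's annotation. All 64 also stand in the Sscrofa11.1 RefSeq table, and 10 of 16 member probes with an accession matched a transcript there, each with the same symbol. FGFR1OP and FGFR1OP2, taken by the name pattern, are no pathway members and had 0.03 and 0.01.

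Members, roles and lists were chosen with earlier results of these data known. Pool values were given for the 8 members of smallest p, a rule that would have added members with a ratio of at least 0.3 from 0 and added none. BMPR2, FST and FGFR4 are given as well, chosen after their values were seen. The fit was run on data simulated from its own variance model, which cannot show how well the model suits these arrays. No source used here gives a slide or scan date, and no batch was examined.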

Additional observations from a re-analysis of the deposited data

How the results depend on the processing

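Results were recomputed with other background corrections, median centring, other filters, no dye term, another variance model, separate channels, the authors' values, 1 array left out and averaged probes. Mean pixel intensities and the removal of FGFR1OP and FGFR1OP2 were added after seeing the data. No alternative brought a member, another pathway gene or any probe past the adjusted threshold, and the smallest adjusted p of a member was 0.284. The 8 members given in full kept their sign under all alternatives in which they were measured. They were picked by smallest p in the main fit and the alternatives reuse the same arrays. Kept signs and repeated small p-values are thus no independent evidence. BMP1 lay under an unadjusted p of 0.05 in 14 of 14 fits, TGFB3 in 12 of 14 (not without array 1 or 4) and LTBP1 in 10 of 13 (not without array 1 or 2, nor with mean pixel intensities). The count of member probes under this p was 3, against 5 with separate channels (4 higher, 1 lower) and 2 to 7 with 1 array left out, the 7 without array 3. The median over members was 0.02, 0.0056 to 0.020 with 1 array left out, 0.036 with a background offset of 0, and 0.075 over the 17 genes above background in both channels of all arrays, where fewer genes entered. Every fit but that of separate channels used the ratio within an array, so the pairing by array is part of it. The fit of separate channels took up the pairing through a correlation of 0.57 between the channels of a spot. An offset of 50 pulls ratios of dim probes towards 0, which limits what can be read from most ligands.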
